A study of Bos taurus with 12 samples.

Results

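The 10 genes described here encode cytosolic and mitochondrial heat shock proteins, namely HSPB1, HSPA1A, HSPA8, DNAJB1, DNAJA1, HSPH1, HSP90AA1, HSP90AB1, HSPD1 and HSPE1. They were chosen by name, and every probe set whose only gene symbol is 1 of the 10 was taken, which gave 21 of the 24016 probe sets that are not controls. The samples came from mammary biopsies of 6 Holstein cows that were pregnant and dry, 3 weeks prepartum. From each cow, 1 capture of intralobular stroma and 1 of epithelium were taken by laser from frozen sections, and the amplified RNA of each capture was measured on 1 bovine GeneChip, giving 6 stroma and 6 epithelium arrays. Before freezing, all tissue had been kept for 2 h as explants in medium with insulin, hydrocortisone and 50 µM BrdU, a label of DNA synthesis, so that both groups carry the biopsy and the culture, and no uncultured sample was analysed here. The labels and the methods give different concentration units for the 2 hormones. The labels give lactation number 3 for cow 1, 2 for cow 2 and 1 for cows 3 to 6, while the methods call the cows multiparous. Stroma was captured so as to avoid vessels and visible immune cells, and each stroma capture pooled 4 slides while each epithelium capture pooled 2.

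Heat shock proteins are molecular chaperones, which bind unfolded or partly folded proteins, keep them from aggregating and help them to fold. HSPB1 holds unfolded proteins without using ATP. HSP70 proteins bind and release clients in a cycle of ATP hydrolysis that J-domain proteins start and nucleotide exchange factors reset, HSP90 proteins act late in the folding of kinases and steroid receptors, and the HSP60 chaperonin with its lid folds proteins inside mitochondria. HSPA1A, DNAJB1 and HSPH1 are classic targets of heat shock factor 1 and are strongly induced by heat and other stress, while HSPA8 and HSP90AB1 are made in most cells without stress. In the mammary gland, epithelium synthesizes protein in large amounts around calving, and stroma makes matrix.

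All values are on a log2 scale, where a difference of 1 is a doubling of signal, and all differences are stroma minus epithelium within a cow. Of the 21 probe sets, 18 were among the 41.8% of probe sets with the highest mean, which were tested. The 3 others (2 of HSPA1A and 1 of HSPH1) were dim, with stroma means of 3.04, 2.19 and 2.84 and epithelium means of 3.27, 2.02 and 2.27, at or below the medians of whole arrays (2.95 to 3.08) or close to them, and no direction was read from them. Unless another is named, a gene is given by its brightest probe set, and its further ones are called the second, the third and the last in order of their means. RNA in a capture is a mixture, so fewer cells of a type and less RNA per cell cannot be told apart.

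The 10 heat shock genes were well measured in both compartments, and none passed the test between them. All 10 had a lower mean in stroma than in epithelium (9 of 10 when arrays were centred on their median, which turned HSPB1), with a median difference of -0.63. The same held for 58.7% of all tested probe sets, whose median difference was -0.18, and for 72.2% of the brightest 3% of probe sets, whose median was -0.30. By limma with cow as a block and Benjamini-Hochberg adjustment over all tested probe sets, 0 of 10 genes were called lower and 0 of 10 higher at an adjusted p under 0.05, and 0 of 10 had an unadjusted p under 0.05, which 23.4% of all tested probe sets had. Of all tested probe sets, 4.76% were called lower and 4.54% higher. With an intensity trend and a robust prior in the same tool, 2 of the 10 (HSPA8 and HSP90AB1) were called lower, as were 4.92% of all tested probe sets. When each gene's probe sets were averaged, DNAJB1 was called lower (-2.01, adjusted p = 0.0323, limma), as were 5.67% of all genes. Of the 18 tested probe sets, 1 was called lower (the second of DNAJB1), 0 were called higher, and 4 had an unadjusted p under 0.05, a share near that of all tested probe sets.

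**Figure D1:**
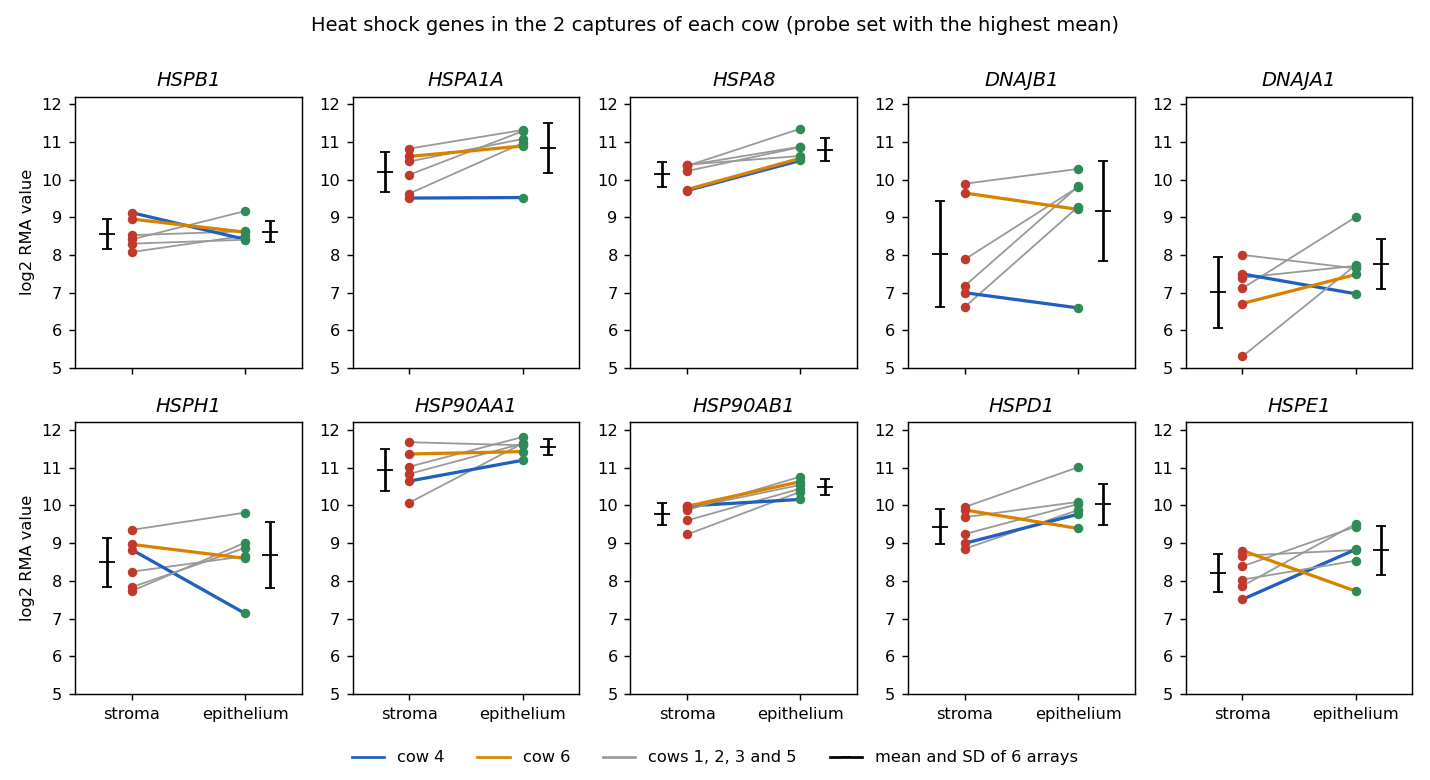
Log2 values of the 10 heat shock genes, 1 panel per gene, with stroma on the left and epithelium on the right of each panel. Lines join the 2 captures of a cow, and bars beside the points give the mean and SD of 6 arrays. For HSPA8 and HSP90AB1 all stroma points lie below all epithelium points, and cow 4 has the lowest epithelium of 7 genes, DNAJB1 by the widest gap.

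HSPB1, the small heat shock protein, had the smallest difference of the 10 genes. It ran from 8.08 over a median of 8.47 to 9.12 in stroma, and from 8.40 over 8.56 to 9.16 in epithelium. The ranges overlapped almost wholly, and stroma was lower in 4 of 6 cows and higher in cows 4 and 6. The difference was -0.06 ± 0.35 (SE), with a 95% interval from -0.84 to 0.73 and an adjusted p of 0.943 in limma. The second probe set gave -0.26 (adjusted p = 0.735), with cows 4 and 6 again the 2 in which stroma was higher.

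HSPA1A, the stress-inducible cytosolic HSP70, ran from 9.51 over a median of 10.31 to 10.82 in stroma and from 9.52 over 11.02 to 11.32 in epithelium. Stroma was the lower capture in all 6 cows, by only 0.01 in cow 4, whose epithelium stood apart from the other 5 (10.89 to 11.32). The means were 10.20 ± 0.54 in stroma and 10.84 ± 0.67 in epithelium (SD, n = 6 each), a difference of -0.65 ± 0.34 (SE), with a 95% interval from -1.43 to 0.14 (1.56-fold, adjusted p = 0.299, limma). The 3 other tested probe sets of HSPA1A also had lower stroma means, with differences of -1.13, -0.83 and -0.90 (adjusted p = 0.212, 0.294 and 0.576). The second probe set, with -1.13, had an unadjusted p of 0.0494 and was higher in the stroma of cows 4 and 6. In the probe annotation the brightest and the second probe set bear the symbol HSPA1A with a gene ID that the RefSeq gene table does not hold. The other 4 probe sets bear the gene ID of HSPA1A in that table. The RefSeq gene table lists HSPA1B as a synonym of HSPA1A and HSPA1L as its neighbour, and near-identical HSP70 copies may share probes, so the signal cannot be given to 1 copy.

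HSPA8, the constitutive cytosolic HSP70, separated the compartments completely. Its stroma values ran from 9.71 over a median of 10.30 to 10.40, and its epithelium values from 10.51 over 10.74 to 11.35. The highest stroma array, that of cow 2, lay 0.11 below the lowest epithelium array, that of cow 4. The difference was -0.66 ± 0.32 (SE) with a 95% interval from -1.38 to 0.06 (1.58-fold, adjusted p = 0.251, limma), and stroma was lower in 6 of 6 cows. The SE that limma moderates toward all probe sets was larger than the 0.110 given by the gene's own 6 differences, which ran from -0.99 in cow 1 to -0.23 in cow 2.

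HSP90AB1, the constitutive cytosolic HSP90, showed the same kind of separation. It ran from 9.23 over a median of 9.90 to 9.99 in stroma and from 10.16 over 10.49 to 10.76 in epithelium, with a gap of 0.17 between the groups. The means were 9.77 ± 0.30 in stroma and 10.48 ± 0.21 in epithelium (SD, n = 6 each). Stroma was lower in 6 of 6 cows, least in cow 4 (-0.17) and most in cow 2 (-1.13), and the mean difference was -0.72 ± 0.32 (SE), from -1.45 to 0.01 at 95% (1.65-fold, adjusted p = 0.221, limma). Its own SE was 0.133. With an intensity trend and a robust prior, which set the spread of bright probe sets by other bright ones, the adjusted p became 0.0340 for HSPA8 and 0.0397 for HSP90AB1.

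Thus 3 of the 10 genes, HSPA1A, HSPA8 and HSP90AB1, were lower in the stroma of all 6 cows, against 9.32% of all tested probe sets and 18.5% of the brightest 3%. For HSPA1A the difference in cow 4 was -0.01, and its 3 other tested probe sets were lower in 4, 5 and 4 cows. The 2 genes with no overlap between groups, HSPA8 and HSP90AB1, stand against 2.79% of all tested probe sets and 6.11% of the brightest 3%. Since the 10 genes were chosen with results known, these shares were not tested against each other.

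HSP90AA1, the stress-inducible HSP90, was spread more widely in stroma than its constitutive partner. It ran from 10.07 over a median of 10.93 to 11.68 in stroma and from 11.20 over 11.62 to 11.82 in epithelium. Stroma was lower in 5 of 6 cows, the exception being cow 3 at 0.08, and the stroma of cows 3 and 6 reached into the epithelium range. The difference was -0.62 ± 0.36 (SE), from -1.43 to 0.19 at 95% (1.53-fold, adjusted p = 0.338, limma).

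The second probe set of HSP90AA1 ran from 7.92 over 8.68 to 9.88 in stroma and from 9.56 over 10.07 to 10.83 in epithelium, with only the stroma of cow 3 inside the epithelium range. Its difference was -1.38 ± 0.41 (SE), with an unadjusted p of 0.00887 and an adjusted p of 0.0749 in limma. It passed the threshold without cow 3, at an adjusted p of 0.0444, and also with no cow block (0.0433), with cow as a random block (0.0321) and with the intensity trend and robust prior (0.0282).

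DNAJB1, the J-domain protein that works with HSPA1A in stress, had the widest spread of the 10 genes in both compartments. Its stroma values were 6.62, 7.88, 7.18, 7.00, 9.89 and 9.64 in cows 1 to 6, and its epithelium values 9.28, 9.80, 9.82, 6.60, 10.28 and 9.21. Cows 5 and 6 were high in stroma and cow 4 was low in epithelium, so that the ranges overlapped almost wholly. The stroma mean was 8.04 ± 1.40 and the epithelium mean 9.16 ± 1.32 (SD, n = 6 each), a difference of -1.13 ± 0.54 (SE), from -2.36 to 0.10 at 95% (2.19-fold, adjusted p = 0.251, limma). Stroma was lower in 4 of 6 cows, by more than in any other of the 10 genes in cows 1 and 3 (-2.66 and -2.64).

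The second DNAJB1 probe set gave the only call among the 18. Its stroma values were 5.67, 3.55, 4.90, 2.31, 2.99 and 7.01 in cows 1 to 6, and its epithelium values 7.19, 7.90, 7.70, 6.43, 8.12 and 6.46. Stroma was below every epithelium array in 5 cows, and cow 6 was higher in stroma by 0.55. The difference was -2.90 ± 0.72 (SE), from -4.52 to -1.27 at 95% (7.44-fold, unadjusted p of 0.00307, adjusted p = 0.0389, limma), but the stroma of cows 4 and 5 lay below the array medians or at them, so the fold depends on the background. The call was lost without cow 1 (adjusted p = 0.0659), cow 2 (0.107), cow 3 (0.0793), cow 4 (0.110) or cow 5 (0.0909), and with no filter on dim probe sets (0.0985), and it held without cow 6 (0.0105).

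DNAJA1, a farnesylated J-domain protein of the cytosol, ran from 5.31 over a median of 7.26 to 8.00 in stroma and from 6.97 over 7.68 to 9.01 in epithelium. The stroma of cow 5 was far below the others, and stroma was the higher capture in cows 1 and 4. The difference was -0.75 ± 0.48 (SE), from -1.84 to 0.33 at 95% (1.69-fold, adjusted p = 0.383, limma), and -0.42 without cow 5 (adjusted p = 0.644).

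HSPH1, the HSP110 nucleotide exchange factor of HSP70, ran from 7.73 over a median of 8.53 to 9.35 in stroma and from 7.13 over 8.76 to 9.81 in epithelium. Stroma was lower in cows 1, 2, 3 and 5 and higher in cow 6 by 0.37 and in cow 4 by 1.69, where the epithelium was the lowest array of the 12. The difference was -0.19 ± 0.45 (SE), from -1.22 to 0.84 at 95% (adjusted p = 0.842, limma), and -0.56 (adjusted p = 0.492) without cow 4.

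The 2 other tested probe sets of HSPH1 gave larger differences. The second ran from 3.20 to 7.39 in stroma and from 3.44 to 9.82 in epithelium, with a difference of -1.80 (unadjusted p of 0.0238, adjusted p = 0.137, limma). Its low stroma values, in cows 4 and 5, and its low epithelium value, in cow 4, were near the array medians. The third gave -0.78 (adjusted p = 0.488).

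The mitochondrial pair gave nearly the same difference. HSPD1, the chaperonin HSP60, ran from 8.85 over a median of 9.46 to 9.96 in stroma and from 9.39 over 9.96 to 11.01 in epithelium, and its difference was -0.59 ± 0.36 (SE), from -1.40 to 0.21 at 95% (1.51-fold, adjusted p = 0.354, limma). HSPE1, the lid of that chaperonin and its neighbour on the chromosome in the RefSeq table, ran from 7.51 over 8.21 to 8.80 in stroma and from 7.73 over 8.83 to 9.51 in epithelium, and its difference was -0.60 ± 0.43 (SE), from -1.58 to 0.38 (1.52-fold, adjusted p = 0.441, limma). Both were lower in the stroma of cows 1 to 5 and higher in that of cow 6, by 0.49 for HSPD1 and 1.08 for HSPE1.

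**Figure D2:**
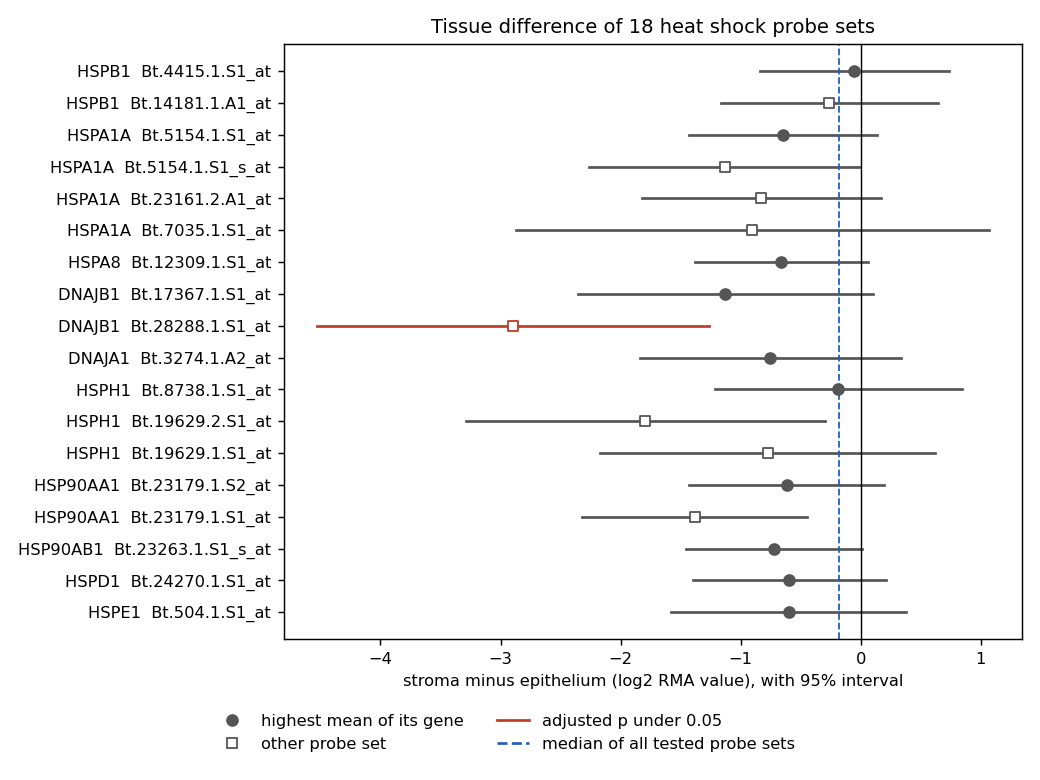
Difference of stroma minus epithelium in log2 values for the 18 tested heat shock probe sets, with 95% intervals from limma. Filled circles are the probe set with the highest mean of each gene, open squares are the others, the dashed line is the median of all tested probe sets (-0.18), and all 18 points lie below 0 (HSPB1 turned with centring) with 1 adjusted p under 0.05 (the second probe set of DNAJB1).

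The tissue difference was then compared between partners, in 4 pairs, by an exact sign-flip permutation test over the 6 cows (two-sided, smallest possible p = 0.0312). Inducible HSPA1A minus constitutive HSPA8 gave 0.02, with a 95% t interval over the 6 cows from -0.76 to 0.80 (exact p = 0.969). Inducible HSP90AA1 minus constitutive HSP90AB1 gave 0.10, from -0.48 to 0.68 (exact p = 0.656), and HSPD1 minus HSPE1 gave 0.01, from -0.70 to 0.72 (exact p = 0.969). DNAJB1 minus DNAJA1 gave -0.37, from -2.43 to 1.68 (exact p = 0.656), and its direction rested on single cows, with 0.15 without cow 1, 0.0148 without cow 3, -0.86 without cow 5 and -0.69 without cow 6. Each of the other pairs also changed sign with a single cow left out. HSPA1A minus HSPA8 gave -0.14 without cow 4, and without cow 3 HSP90AA1 minus HSP90AB1 gave -0.06 and HSPD1 minus HSPE1 gave -0.12. The adjusted p was 0.969 for all 4 pairs, and even the narrowest interval, that of HSP90AA1 minus HSP90AB1, ran from -0.475 to 0.680.

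**Figure D3:**
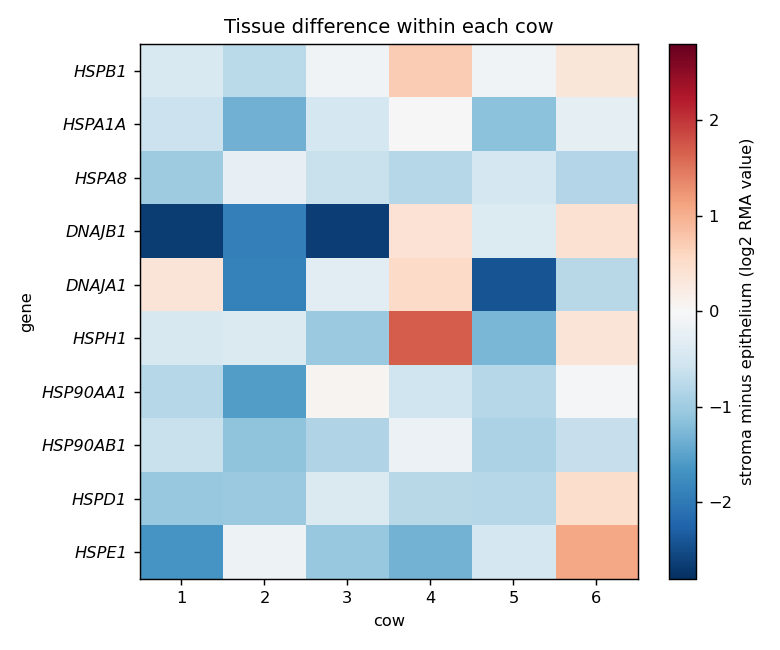
Difference of stroma minus epithelium in log2 values for each of the 10 heat shock genes (rows) in each of 6 cows (columns). Blue is lower in stroma and red higher; cows 2 and 5 have no red cell, and most red cells lie in cows 4 and 6 (4 and 5 genes).

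The cows differed in how many of the 10 genes were lower in stroma. In cows 1, 2, 3 and 5 stroma was higher for 1, 0, 1 and 0 genes, and the median difference over the genes was -0.71, -1.08, -0.56 and -0.80. In cow 4 stroma was higher for 4 genes and in cow 6 for 5, with medians of -0.09 and 0.14. The medians over all tested probe sets lay between -0.27 and 0.00 in every cow. Averaged over the 10 genes, the stroma values were 9.17, 8.85, 9.13, 8.88, 8.97 and 9.46 in cows 1 to 6, and the epithelium values 10.06, 9.89, 9.88, 8.91, 9.86 and 9.45.

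The epithelium of cow 4 was the lowest of the 6 for 7 of the 10 genes, while it was the lowest for 10.8% of all tested probe sets. The stroma of cow 4 was the lowest of the 6 for 3 genes (HSPA1A, HSPA8 and HSPE1) and the highest for 2. For HSPA1A it was also the lowest in the second probe set (8.777, with cow 2 at 8.779) and in the third (8.48), so both captures of this cow were low. By their brightest probe sets, DNAJB1, HSPA1A and HSPH1 were furthest down in the epithelium of cow 4. Relative to the median of the other 5 epithelium arrays, DNAJB1 stood at -3.20, a value that 0.409% of tested probe sets reached. Its second probe set stood at only -1.27 (6.72%). HSPA1A stood at -1.55 (4.50% of probe sets) and its second probe set at -3.02 (0.528%). The other tested probe sets of HSPA1A stood at -2.19 (1.58%) and, for the last, at -0.64 (18.1%). HSPH1 stood at -1.74 (3.40%), its second probe set at -4.21 (0.130%) and its last tested probe set at -2.04 (2.14%). The brightest probe sets of the other 7 genes were closer to the other cows. DNAJA1 stood at -0.74, HSP90AA1 at -0.44, HSP90AB1 at -0.38, HSPA8 at -0.35, HSPD1 at -0.27, HSPB1 at -0.19 and HSPE1 at 0.01. In that capture the luminal marker level was 7.76, the highest of the 6 epithelium arrays, and the fibroblast marker level 3.34, the lowest. The level of its control RNAs (4.24) lay within the epithelium range of 3.07 to 6.58. The part of RNA quality and handling in these values was not tested.

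In cow 6 it was in stroma that probe sets of DNAJB1 and HSPA1A were high. DNAJB1 lay above the median of the other 5 stroma arrays by 2.46, a value that 5.21% of tested probe sets reached, and by 3.46 in its second probe set (1.78%). In the brightest DNAJB1 probe set the stroma of cow 5 (9.89) was higher still than that of cow 6 (9.64). In the second it was at 2.99, against 7.01 in cow 6. HSPA1A lay above the median of the other 5 stroma arrays by 0.48 (31.6%), by 2.17 in its second (6.97%) and by 3.68 in its last tested probe set (1.44%), while HSPA8 and DNAJA1 stood at -0.63 and -0.68. In that last HSPA1A probe set the stroma of cow 1 (6.19) was nearly as high as that of cow 6 (6.47). There the stroma of cows 2 to 5 lay between 2.43 and 2.97, at or below the array medians, so the 3.68 depends on the background. The stroma array of cow 6 had the widest GAPDH gap of the 12 between 3′ and 5′ probe sets (4.75) and control RNAs at 10.39. That of cow 5 had control RNAs at 10.99 and the narrowest gap of the stroma arrays (2.31). The part of these measures in the values was not tested. Without cow 4 the differences were -0.77 for HSPA1A (adjusted p = 0.315) and -1.43 for DNAJB1 (0.206), and without cow 6 DNAJB1 gave -1.44 (0.187). None of the 10 genes was called when any single cow was left out.

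The captures matched their labels by markers. Of 15 luminal epithelial markers 13 were called lower in stroma, with mean log2 levels over the list of 3.88 to 5.18 in stroma and 7.01 to 7.76 in epithelium. All 12 tested fibroblast markers were called higher in stroma (9.16 to 9.91 in stroma, 3.34 to 5.73 in epithelium), and so were 5 of 7 endothelial markers (6.38 to 7.34 in stroma, 3.01 to 3.63 in epithelium) although vessels were avoided. Of the other marker lists, 2 of 7 myoepithelial and smooth muscle, 0 of 5 monocyte and macrophage and 2 of 6 lymphocyte and plasma cell genes were called higher in stroma, and 0 were called lower. The control RNAs added to each sample averaged 4.15 to 10.99 in stroma, with cows 4, 5 and 6 at 9.07 or more, and 3.07 to 6.58 in epithelium. The gap between the 3′ and the 5′ probe set of GAPDH, a measure of how far amplified RNA is shortened, was 2.31 to 4.75 in stroma and 0.93 to 3.59 in epithelium. The paper took its own 3′ to 5′ ratio of GAPDH as a sign of suitable starting RNA. That ratio was not computed here, and gaps between normalized log2 values are not the same measure. Without cows 4, 5 and 6, 0 of 10 heat shock genes and 0.857% of all tested probe sets were called lower, and the control RNAs in the stroma of cow 3 (7.10) still lay above every epithelium array. The part of these measures in the heat shock differences was not tested.

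**Figure D4:**
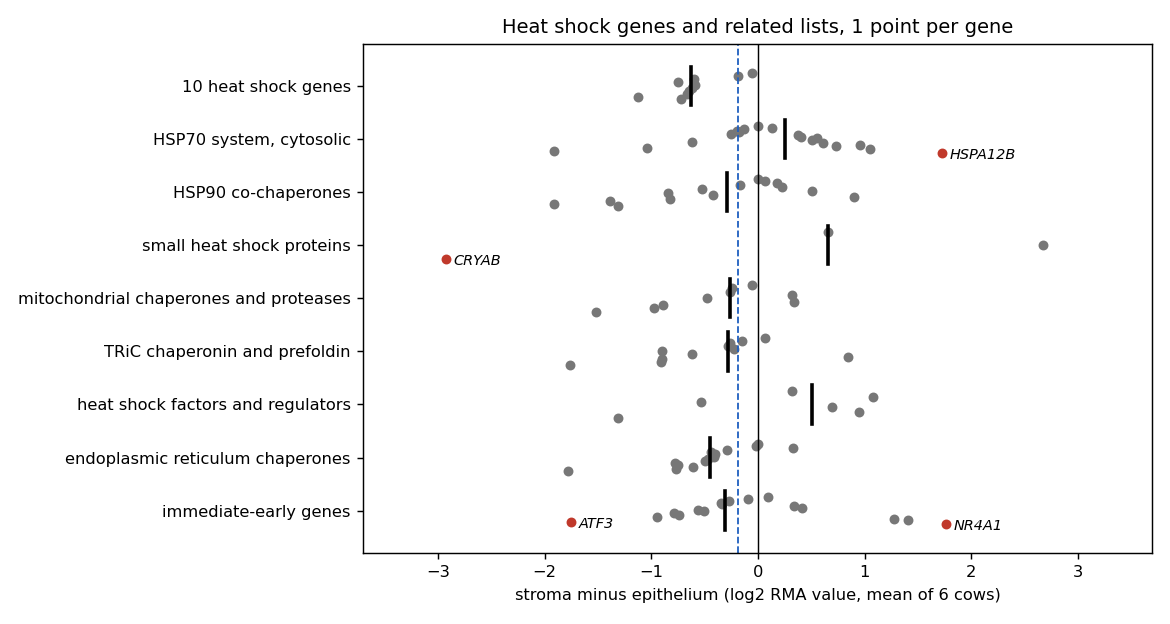
Difference of stroma minus epithelium in log2 values for each tested gene of the heat shock group and of 8 related lists. Black bars are list medians (-0.63 for the heat shock genes), the dashed line is the median of all tested probe sets (-0.18), and red points, all named, have an adjusted p under 0.05.

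Related genes were read from lists that hold none of the 10. Over all 5222 tested genes, 234 were called higher and 241 lower in stroma, 3133 had a lower and 2089 a higher mean, and the median difference was -0.20. Of 57 tested genes of the other cytosolic and mitochondrial chaperones, co-chaperones and regulators (EEF1A1 and SIRT1 of the regulator list left out), 1 was called higher and 1 lower in stroma, 32 had a lower and 25 a higher mean, and the median difference was -0.15. The gene called higher was HSPA12B, a distant HSP70 relative known from endothelium, with means of 6.40 ± 0.58 in stroma and 4.67 ± 0.34 in epithelium (SD, n = 6 each; 3.31-fold, adjusted p = 0.0161, limma), and it was higher in 6 of 6 cows. The gene called lower was CRYAB, the small heat shock protein αB-crystallin, which muscle also makes in large amounts. It averaged 3.05 ± 0.66 in stroma, near the array medians, and 5.98 ± 1.02 in epithelium (SD, n = 6 each), a difference of -2.93 (adjusted p = 0.00461, limma) whose size depends on the background, and it was lower in 6 of 6 cows. The other 2 tested small heat shock genes had higher stroma means and did not pass. HSPB6, known from muscle, averaged 5.09 ± 2.08 in stroma and 2.41 ± 0.51 in epithelium, below the array medians (2.68, adjusted p = 0.0671, higher in 5 of 6 cows), and CRYAA, αA-crystallin of the lens, gave 0.65 (adjusted p = 0.302, higher in 5 of 6 cows).

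Within these lists, 17 of 18 tested genes of the HSP70 system, all 14 HSP90 co-chaperones, 9 mitochondrial chaperones and proteases, 11 subunits of the TRiC chaperonin and prefoldin, and 6 heat shock factors and regulators (here with EEF1A1 and SIRT1) did not pass the test. The lowest p values of their lists belonged to FKBP4, an immunophilin of the HSP90 complex (-1.31, adjusted p = 0.123), GRPEL1, the exchange factor of mitochondrial HSP70 (-1.52, adjusted p = 0.181), and PFDN1, a prefoldin subunit (-1.77, adjusted p = 0.0627, lower in 6 of 6 cows). HSF1, the transcription factor of the heat shock response, differed by 0.32 (adjusted p = 0.670).

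Chaperones of the endoplasmic reticulum, which fold secreted proteins, gave a median of -0.45, with 13 of 14 stroma means lower and 0 called, against a median of -0.20 and 3133 of 5222 lower means over all tested genes. Their lowest p was that of HYOU1, the HSP110 relative of that compartment (-1.78, adjusted p = 0.164). Among 16 tested immediate-early genes, which respond to handling and growth signals, 1 was called higher and 1 lower, against 234 and 241 of all 5222 tested genes. NR4A1, a nuclear receptor, averaged 9.48 ± 0.42 in stroma and 7.72 ± 0.71 in epithelium (3.39-fold, adjusted p = 0.0115, higher in 6 of 6 cows), and ATF3, a stress-induced transcription factor, averaged 6.30 ± 1.81 in stroma and 8.05 ± 1.54 in epithelium (3.37-fold, adjusted p = 0.0367, lower in 5 of 6 cows).

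Finally, the genes closest in profile to HSPA1A and HSPD1 were found by the root mean square distance between values centred on each gene's mean over the 12 arrays, among 5221 genes. Closest to HSPA1A were HSP90AA1 (0.362), YTHDC1, a reader of methylated RNA (0.377), and MRPS27, a mitochondrial ribosomal protein (0.397), where the median gene lay at 1.14. Closest to HSPD1 were HSPA5, the HSP70 of the endoplasmic reticulum (0.303), HSP90AA1 (0.340) and SRSF3, a splicing factor (0.353), where the median gene lay at 1.08. HSPE1 was the gene at rank 54 from HSPD1, at 0.476. From HSPA1A the other heat shock genes lay between rank 1 (HSP90AA1) and rank 2137 (DNAJB1), with HSPH1 at rank 204. Values were centred but not scaled, so the spread of a gene enters its distance. These distances are descriptions over 12 arrays that share cows and normalization.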

How the data were processed

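The deposited values are log2 values from RMA, which the authors ran with its quantile step over 24 arrays, these 12 among them. Per the labels, both captures of a cow share a replicate number, which set the pairs; deviations of such captures correlated at 0.0257 to 0.201. Probe sets were named through the platform's annotation, in which 13292 have a single symbol. The detection calls of the study were not used here, and in their place the 10031 of 24016 probe sets with the highest mean were tested in R 4.3.3 with limma 3.58.1 (tables were handled with data.table, version 1.17.8), with tissue as the term, cow as a fixed block and Benjamini-Hochberg adjustment at 0.05. The 95% intervals of probe sets came from the same fit. Those of the 4 pairs were t intervals over the 6 cows. The methods fitted tissue alone, which was an alternative here. Others were a random cow block, an intensity trend with robust prior, testing of all 24016 or of only the brightest 5000, repeated quantile normalization, centring on the median of tested probe sets, averaging each gene's probe sets, and each cow left out. Leaving out cows 5 and 6, or 4, 5 and 6, was chosen after seeing the data. The fit was tested on simulated data.

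The text names all 10 genes, the genes of each related list with the largest differences past the threshold or else the lowest p, and the 3 closest profiles to HSPA1A and HSPD1. HSF1, HSPB6 and CRYAA were named outside this rule, after their values were seen. The 10 genes and the lists were chosen with earlier results of these data known. The number of arrays limits the precision.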

Additional observations from a re-analysis of the deposited data

Results flagged for a closer look

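In 4 of 54 groups of 6 arrays (18 probe sets in stroma and in epithelium, and 18 sets of within-cow differences), 1 cow stood far from the other 5, where chance alone flags about 1 group in 20. For HSPB1, the epithelium of cow 2 was at 9.16, with the next array at 8.63. For HSPA1A, the epithelium of cow 4 was at 9.52, with the next at 10.89, and for the second probe set of HSPA1A it was at 8.39, with the next at 11.35. For DNAJB1, it was at 6.60, with the next at 9.21. By the same criterion 9.20% of all tested probe sets were flagged in stroma and 7.62% in epithelium, and 28 (0.279%) were flagged as low in the epithelium of cow 4, 3 of them heat shock probe sets. The others of the 28, named here after their values were seen, held 3 probe sets of JUN, an immediate-early transcription factor, and 1 each of CCN1 and CCN2, secreted matrix-associated proteins. One JUN probe set was at 8.28 in that capture, with the next epithelium array at 9.89, CCN1 at 5.63, with the next at 8.50, and CCN2 at 3.99, with the next at 7.17. Over all 16 tested immediate-early genes, the mean log2 value of that capture was 8.93, next to the lowest of the epithelium arrays, which ran from 8.88 to 9.61. In the stroma of cow 4 it was 8.67, the lowest of the 6 stroma arrays.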

How the results depend on the processing

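The number of heat shock genes called lower in stroma, 0, became 2 with an intensity trend and robust prior and 1 (DNAJB1, -2.01, adjusted p = 0.0323) when each gene's probe sets were averaged (5.67% of all genes called lower), and it was 0 under the other alternatives. The number of heat shock probe sets called lower, 1, became 2 with no replicate block (4.61% of all probe sets), 2 with a random cow block (5.74%), 4 with an intensity trend and robust prior (4.92%), 0 with no filter (1.62%), 0 without cows 4, 5 and 6 (0.857%), and between 0 and 1 with 1 cow left out. The only call without cow 3 was the second probe set of HSP90AA1. No probe set was called higher in stroma under any of these settings. The difference of HSPB1 changed sign to 0.12 with centring on the median and ran from -0.21 to 0.0836 with 1 cow left out, positive without cow 1 (0.02) and cow 2. That of HSPH1 ran from -0.56 to 0.0296, positive without cow 5, and all were uncalled. Centring moved the median of tested probe sets to -0.01 and the calls to 3.60% lower and 5.14% higher, with 9 of 10 heat shock means still lower. The 4 paired comparisons were not run without cows 5 and 6 or without cows 4, 5 and 6, and their adjusted p was 0.5 or more in the 9 settings run. With 1 cow left out they ran from -0.14 to 0.24 for HSPA1A minus HSPA8, -0.0625 to 0.21 for HSP90AA1 minus HSP90AB1, -0.86 to 0.15 for DNAJB1 minus DNAJA1 and -0.12 to 0.18 for HSPD1 minus HSPE1. With averaged probe sets the first 3 gave -0.22, -0.28 and -1.26. The cause of these changes was not tested. Values near the array medians carry little signal over background, so folds of the dim DNAJB1, HSPA1A and HSPH1 probe sets and of CRYAB are not exact.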
